A study of Homo sapiens with 16 samples.

Results

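The genes described here are the 10 enzymes that make serine from glucose, interconvert serine and glycine, and pass the carbon atoms they release through the folate cycle. They are PHGDH, PSAT1, PSPH, SHMT1, SHMT2, MTHFD1, MTHFD2, MTHFD1L, ALDH1L2 and GLDC, and they were chosen by name, as the probes that the array files assign to these symbols. The choice of these genes, and of the further pathway genes below, was made with earlier results of these data known. Shares of all genes set beside their counts are therefore a description and not a test of the set. These 10 genes have 17 of the 50599 different probes on the array and are 10 of the 32080 gene names it carries. Each of the 10 genes passed the filter on dim probes in both cell lines, as did all 17 probes. RPMI-8226 and MM.1S, established human multiple myeloma (MM) lines, were each treated for 6 days with the solvent DMSO, with 1 µM GSK126, an inhibitor of the H3K27 methyltransferase EZH2, with 1 µM UNC0638, an inhibitor of the H3K9 methyltransferase G9a, or with 1 µM of each. Each of the 8 groups had 2 biological replicates, so that 16 samples were measured on 16 1-colour arrays.

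Serine synthesis leaves glycolysis at 3-phosphoglycerate: PHGDH oxidises it, PSAT1 transfers an amino group onto the product, and PSPH removes the phosphate. The serine hydroxymethyltransferases, SHMT1 in the cytosol and SHMT2 in the mitochondrion, then turn serine into glycine and hand a carbon unit to folate, which the MTHFD enzymes carry on for the synthesis of purines, thymidylate and formate, while GLDC breaks glycine down. Proliferating cells, myeloma cells among them, rely on these reactions. The transcription factor ATF4 is a known activator of many of the genes, and H3K9 methylation by G9a has been reported to keep the serine pathway active, which is the question that the UNC0638 groups bear on.

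A level is given here as a multiple of the 75th percentile of the intensities on its array. A level depends on the probe as well as on the transcript, and levels are therefore compared between samples and not between genes. Fold changes are differences of group means on the log2 scale, with the standard error (SE) and the p-value, adjusted over all probes by the Benjamini-Hochberg method, from limma fitted over the 8 arrays of a line. A gene with several probes was counted through the probe with the highest mean. "Fell" is written only where the adjusted p was under 0.05.

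Probes of SHMT1, ALDH1L2 and MTHFD1L are printed here as examples of what was measured, since the first and last have several probes and that of ALDH1L2 came close to background. Each is 60 bases long and is printed 5′ to 3′, with the position that the array annotation gives on GRCh37 (hg19). In which exon each lies was not analysed here.
SHMT1, second probe, chr17:18236513-18236572, minus strand: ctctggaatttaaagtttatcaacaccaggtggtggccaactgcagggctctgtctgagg
ALDH1L2, chr12:105420340-105420399, minus strand: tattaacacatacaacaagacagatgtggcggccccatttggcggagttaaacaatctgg
MTHFD1L, counted probe, chr6:151358151-151358210, plus strand: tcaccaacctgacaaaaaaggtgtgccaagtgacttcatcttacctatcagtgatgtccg
MTHFD1L, another probe, chr6:151355724-151358147, plus strand: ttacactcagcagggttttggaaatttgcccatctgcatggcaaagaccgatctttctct
MTHFD1L, another probe, chr6:151206858-151209024, plus strand: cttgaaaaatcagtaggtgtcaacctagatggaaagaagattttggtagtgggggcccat
The spans of the last 2 probes are longer than the 60 bases, so that each joins separate stretches of the genome. Further counted probes lie at chr9:80944778-80944837 (PSAT1, plus strand), chr7:56078799-56078858 (PSPH, minus), chr17:18231526-18231585 (SHMT1, minus), chr14:64926496-64926555 (MTHFD1, plus), chr12:57628345-57628404 (SHMT2, plus), chr2:74441985-74442044 (MTHFD2, plus) and chr9:6532749-6532808 (GLDC, minus). PSPH has a pseudogene on the same chromosome, and whether its RNA adds to the PSPH signal was not tested.

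All arrays of a line came from 1 slide and 1 scan, and the slide can therefore not be told apart from the line. Replicates of a group correlated at 0.985 to 0.991 in RPMI-8226 and at 0.993 to 0.995 in MM.1S over the probes kept, and no spot was saturated. Of the spots on an array, 46.5% to 49.7% were well above background in RPMI-8226 and 49.9% to 52.8% in MM.1S. All 6 plasma cell markers were above background on every array of both lines. Their summed level was 283 to 329 with DMSO and 184 to 235 with the combination treatment in RPMI-8226, and 449 to 461 and 326 to 335 in MM.1S. Among the 6, TNFRSF17 and SDC1 fell in RPMI-8226 and all but IGJ fell in MM.1S. The part of this change in the results below was not tested. Of the 3 monocyte markers on the array, 2 were above background on every array in RPMI-8226 and 1 in MM.1S. FCGR3A was above background on no array and CSF1R on none of MM.1S. In RPMI-8226 the summed level of the 3 was 0.537 to 0.932 with DMSO and 3.63 to 4.84 with the combination. It was 3.37 to 5.64 in that line with GSK126 alone and 0.436 to 0.814 with UNC0638 alone. In every MM.1S group it was at most 0.167. Of 5 T cell markers, 4 were above background on every array of each line, and their summed level was 5.82 to 6.17 with DMSO and 10.4 to 10.7 with the combination in RPMI-8226, and 9.32 to 9.43 and 6.58 to 6.81 in MM.1S. The sum hides genes that moved apart. CD3E and CD2 rose with the combination in both lines (CD3E to 2540% of DMSO in RPMI-8226 and 523% in MM.1S, CD2 to 613% and 396%), and CD3D rose in RPMI-8226 (3180%). CD3E was the marker not above background throughout, with 4 of 8 arrays in RPMI-8226 and 5 of 8 in MM.1S. Its levels ran from 0.0098 to 0.36 and from 0.0299 to 0.185, so that its percentages rest on values close to background. CD8A fell in both lines (60% and 78.3%), and CD4 fell in MM.1S (64.8%). The part of these markers in the results was not tested. Each sample is a bulk culture of 1 cell line, in which a change in some cells and a change in all cells cannot be told apart.

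In MM.1S cells, all 10 genes fell with GSK126 + UNC0638, by 8.98-fold for PHGDH at one end and to 60.5% of the DMSO level for SHMT1 at the other. Over all genes tested in this line, 32.2% were called lower and 23.2% higher in the same comparison. The median log2 change was -1.70 for the 10 genes and -0.11 for all 17014. When the percentile was taken over probes that every array detected, the calls over all genes went from 5475 lower and 3945 higher to 3664 lower and 5204 higher, and the 10 genes remained lower with a median of -1.52.

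**Figure D1:**
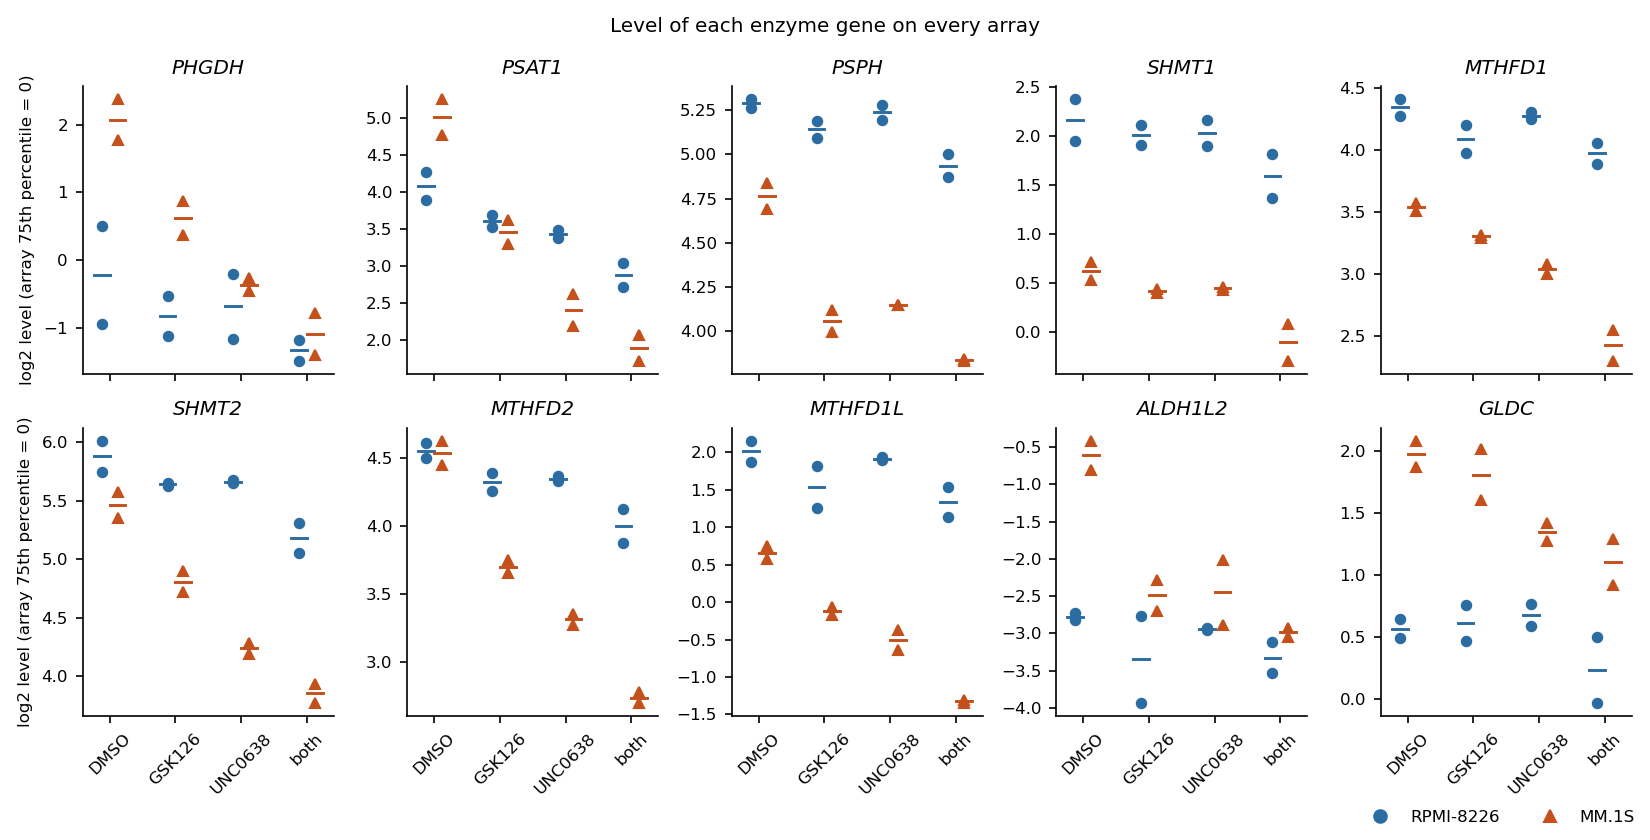
Log2 level of each enzyme gene (y axis, log2 of the intensity over the 75th percentile of the array) in the 8 groups (x axis), with 1 point per array and a bar at the group mean. In MM.1S the DMSO mean is the highest and the combination mean the lowest in every panel, whereas in RPMI-8226 the groups lie closer together.

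Of the serine synthesis enzymes, PHGDH and PSAT1 had the greatest decreases of the 10 genes and PSPH one of the smaller. PHGDH, the dehydrogenase that commits 3-phosphoglycerate to serine, had levels of 3.4 and 5.2 in the MM.1S DMSO replicates and 0.581 and 0.378 with the combination. The GSK126 replicates were at 1.29 and 1.83, and those of UNC0638 at 0.83 and 0.727. The 4 groups did not overlap, and their order from high to low was DMSO, GSK126, UNC0638 and the combination. PHGDH fell by 3.17 on the log2 scale with the combination (SE 0.30, limma adjusted p = 0.000579), to 11.1% of the DMSO level. It fell by 2.44 with UNC0638 (adjusted p = 0.00447) and by 1.45 with GSK126 (adjusted p = 0.0447).

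PSAT1, the aminotransferase of the pathway, was at 27.1 and 38.1 with DMSO, 9.89 and 12.3 with GSK126, 6.14 and 4.56 with UNC0638, and 4.22 and 3.31 with both. The groups again did not overlap and stood in the same order as for PHGDH. The decrease with the combination was -3.10 (SE 0.24, adjusted p = 0.000354), which left 11.6% of the DMSO level, and those with UNC0638 and GSK126 were -2.60 (adjusted p = 0.00213) and -1.55 (adjusted p = 0.0218). PSPH, the phosphatase of the last step, changed less. Its levels were 25.8 and 28.6 with DMSO, 16 and 17.4 with GSK126, 17.7 and 17.7 with UNC0638, and 14.4 and 14.3 with both. The DMSO arrays stood above all others, and the arrays with either inhibitor alone lay close together. PSPH fell to 52.8% of the DMSO level with the combination (-0.92, SE 0.09, adjusted p = 0.00058), and also with GSK126 (-0.70, adjusted p = 0.0126) and with UNC0638 (-0.61, adjusted p = 0.00635).

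The mitochondrial folate enzymes fell together with the combination in MM.1S. SHMT2, which splits serine into glycine and a folate-bound carbon, had levels of 40.8 and 47.6 with DMSO, 26.3 and 29.8 with GSK126, 19.5 and 18.3 with UNC0638, and 15.3 and 13.7 with both. No 2 groups overlapped. SHMT2 was at 32.8% of the DMSO level with the combination (-1.61, SE 0.12, adjusted p = 0.000331). MTHFD2, the dehydrogenase and cyclohydrolase that follows it, is measured by 10 spots on each array, whose log2 values had a median SD of 0.05 within an array. Its levels were 21.9 and 24.7 with DMSO, 12.6 and 13.5 with GSK126, 10.2 and 9.68 with UNC0638, and 6.85 and 6.51 with both. Its groups did not overlap either. MTHFD2 fell by 1.80 with the combination (SE 0.10, adjusted p = 0.000147), by 1.22 with UNC0638 (adjusted p = 0.00129) and by 0.84 with GSK126 (adjusted p = 0.0096).

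MTHFD1L, the mitochondrial synthetase that releases formate, was at 1.49 and 1.68 with DMSO, 0.885 and 0.959 with GSK126, 0.776 and 0.645 with UNC0638, and 0.395 and 0.403 with both. It held the same order of groups without overlap and fell by 1.99 with the combination (SE 0.12, adjusted p = 0.000194), to 25.2% of the DMSO level. ALDH1L2, the mitochondrial enzyme that oxidises the formyl group of folate to CO2, was dim. Its levels were 0.574 and 0.748 with DMSO, 0.154 and 0.206 with GSK126, 0.247 and 0.135 with UNC0638, and 0.132 and 0.121 with both. The 3 inhibitor groups lay far below DMSO, and those of GSK126 and UNC0638 overlapped. ALDH1L2 fell to 19.3% with the combination (-2.38, SE 0.31, adjusted p = 0.0015), to 27.9% with UNC0638 (adjusted p = 0.0095) and to 27.2% with GSK126 (adjusted p = 0.0252).

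The cytosolic enzymes and GLDC fell less with the combination than the mitochondrial folate enzymes did. MTHFD1, the cytosolic enzyme that joins formate to folate and interconverts its one-carbon forms, was at 11.9 and 11.4 with DMSO, 9.99 and 9.82 with GSK126, 8.46 and 8.02 with UNC0638, and 5.86 and 4.94 with both. The combination left 46.2% of the DMSO level (-1.12, SE 0.10, adjusted p = 0.000534). SHMT1, the cytosolic counterpart of SHMT2, was at 1.63 and 1.44 with DMSO, 1.35 and 1.32 with GSK126, 1.37 and 1.35 with UNC0638, and 1.06 and 0.815 with both. Its single-inhibitor arrays lay just under DMSO and only the combination arrays stood apart, with a decrease of -0.73 (SE 0.14, adjusted p = 0.00617). GLDC, the decarboxylase of the glycine cleavage system, is also measured by 10 spots. Its levels were 3.66 and 4.24 with DMSO, 3.05 and 4.04 with GSK126, 2.43 and 2.67 with UNC0638, and 1.9 and 2.45 with both. The GSK126 and DMSO arrays overlapped, as did those of UNC0638 and the combination. GLDC fell by 0.87 with the combination (SE 0.19, adjusted p = 0.00956), a call that was lost when DMSO replicate 2 was left out (adjusted p = 0.0535).

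With UNC0638 alone, 8 of the 10 genes fell in MM.1S, against 16.5% of all genes called lower and 13.8% called higher. The exceptions were SHMT1 (-0.18, SE 0.14, adjusted p = 0.377) and GLDC (-0.63, SE 0.19, adjusted p = 0.0504, or 0.0106 with the replicate block). PSAT1 and PHGDH were at 16.5% and 18.5% of their DMSO levels, SHMT2 and MTHFD2 both at 42.8% and MTHFD1L at 44.8%. MTHFD1 fell by 0.50 (SE 0.10, adjusted p = 0.0171). The median over the 10 genes was -1.19 and over all genes -0.06.

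With GSK126 alone, 7 of the 10 genes fell in MM.1S, where 2.36% of all genes did. These were the 3 serine synthesis genes and the 4 genes of the mitochondrial folate enzymes. MTHFD1 (-0.24, adjusted p = 0.202), SHMT1 (-0.20, adjusted p = 0.391) and GLDC (-0.16, adjusted p = 0.607) did not pass the test. ALDH1L2 was at 27.2% of its DMSO level, PSAT1 at 34.3%, PHGDH at 36.6%, MTHFD2 at 56%, MTHFD1L at 58.3%, PSPH at 61.4% and SHMT2 at 63.5%. The median was -0.74 against -0.05 for all genes. The adjusted p-values lay near the threshold, and the count rested on single arrays. It was 0 without DMSO replicate 2 or GSK126 replicate 1, 2 without GSK126 replicate 2, 3 without DMSO replicate 1 and 4 without either combination replicate. PHGDH lost its call with the replicate number as a block (adjusted p = 0.0595). The count was 1 with dim probes kept or when just the arrays under comparison were fitted.

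**Figure D2:**
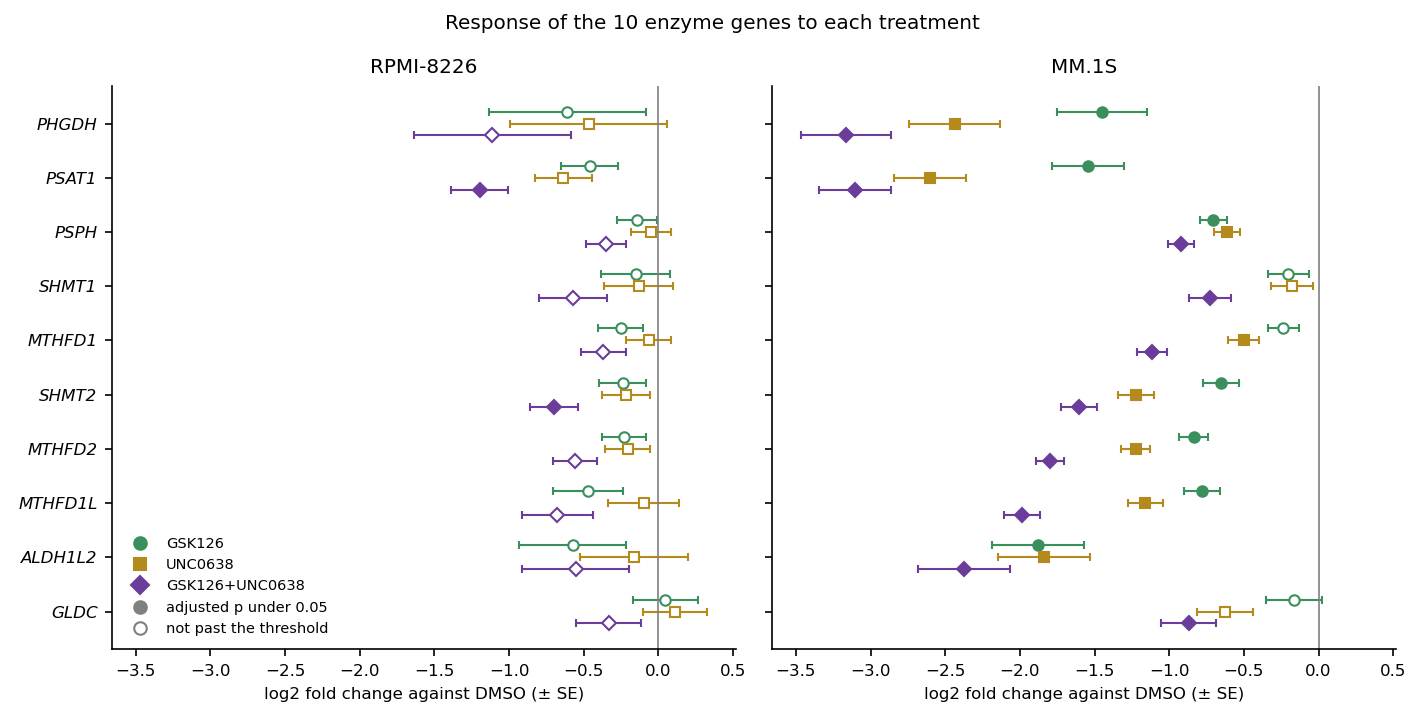
Log2 fold change against DMSO with its SE (x axis) for each enzyme gene (y axis) and treatment in both cell lines, with filled points where the limma adjusted p was under 0.05. With the combination all 10 points are filled in MM.1S, and those of PSAT1 and SHMT2 are filled in RPMI-8226.

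What each inhibitor added to the other was tested directly between the treated groups. Adding UNC0638 to GSK126 lowered 8 of the 10 genes in MM.1S, against 22.5% of all genes. PHGDH fell by a further 1.72 (SE 0.30, adjusted p = 0.00821), PSAT1 by 1.56 (SE 0.24, adjusted p = 0.0056) and MTHFD1L by 1.21 (SE 0.12, adjusted p = 0.00196). PSPH (-0.22, adjusted p = 0.101) and ALDH1L2 (-0.50, adjusted p = 0.25) did not pass. Adding GSK126 to UNC0638 lowered 3 of the 10, against 7.75% of all genes. These were MTHFD1L (-0.83, SE 0.12, adjusted p = 0.0174), MTHFD2 (-0.58, SE 0.10, adjusted p = 0.0218) and MTHFD1 (-0.61, SE 0.10, adjusted p = 0.0225). PHGDH (-0.73, SE 0.30, adjusted p = 0.154) and PSAT1 (-0.50, SE 0.24, adjusted p = 0.206) did not pass this test, and SHMT1 lay close to the threshold (-0.55, adjusted p = 0.052). With the replicate block SHMT1 passed (adjusted p = 0.0355), for a count of 4. The 3 calls were lost without combination replicate 2 or UNC0638 replicate 1, and 1 was left without UNC0638 replicate 2. The count was also 0 with dim probes kept or when just the groups under comparison were fitted, 5 with normexp background correction and 6 with a prior variance that depends on intensity. The comparisons with DMSO share their control arrays, and those between treated groups share the combination arrays.

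In RPMI-8226 cells, 2 of the 10 genes fell with the combination, against 4.71% of all genes called lower and 8.27% called higher. PSAT1 was at 19.2 and 14.8 with DMSO, 11.6 and 12.9 with GSK126, 11.3 and 10.4 with UNC0638, and 6.56 and 8.24 with both. Both combination arrays lay below all others. PSAT1 fell to 43.6% of the DMSO level (-1.20, SE 0.19, adjusted p = 0.0127). SHMT2 was at 64.4 and 53.7 with DMSO, 49.4 and 50.2 with GSK126, 50.1 and 51.1 with UNC0638, and 33.2 and 39.5 with both. The single-inhibitor arrays lay close under the lower DMSO array. SHMT2 fell to 61.6% (-0.70, SE 0.16, adjusted p = 0.0372).

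The other 8 genes had negative differences with the combination in RPMI-8226 that did not pass the test without a replicate block. MTHFD2 came nearest, with levels of 24.4 and 22.7 with DMSO, 19.2 and 21 with GSK126, 20.1 and 20.7 with UNC0638, and 14.7 and 17.4 with both (-0.56, SE 0.15, adjusted p = 0.0569). The combination arrays of MTHFD2 did not overlap with any other group. PHGDH replicates lay far apart in this line. They were at 1.42 and 0.519 with DMSO, 0.69 and 0.459 with GSK126, 0.864 and 0.447 with UNC0638, and 0.443 and 0.357 with both. In each group replicate 1 was above replicate 2, and both combination arrays lay below both DMSO arrays. The difference was -1.11 (SE 0.53, adjusted p = 0.202), and with the replicate number as a block, which takes out the shift shared by the groups, it passed (SE 0.28, adjusted p = 0.039).

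MTHFD1L was at 4.44 and 3.67 with DMSO, 2.4 and 3.54 with GSK126, 3.73 and 3.82 with UNC0638, and 2.2 and 2.9 with both (-0.68, SE 0.24, adjusted p = 0.11). The GSK126 and combination arrays of MTHFD1L overlapped. PSPH ranged from 29.3 to 39.7 over the 8 arrays (-0.35, SE 0.13, adjusted p = 0.131), MTHFD1 from 14.8 to 21.3 (-0.37, SE 0.15, adjusted p = 0.154) and SHMT1 from 2.57 to 5.19 (-0.57, SE 0.23, adjusted p = 0.148). For these 3 genes the combination arrays held the lowest value. GLDC ranged from 0.98 to 1.7 (-0.33, SE 0.22, adjusted p = 0.331). ALDH1L2 ranged from 0.0656 to 0.151 (-0.55, SE 0.36, adjusted p = 0.334) and its array at 0.0656, GSK126 replicate 1, was not well above background. The median difference of the 10 genes was -0.56, and that of all 16062 genes -0.10. On the percentile of probes that every array detected, these medians were -0.43 and 0.03, and the same 10 differences remained negative.

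The RPMI-8226 count changed with the model. With the replicate number as a block 5 genes fell, namely PSAT1 (adjusted p = 0.0116), SHMT2 (adjusted p = 0.0312), SHMT1 (adjusted p = 0.0344), PHGDH (adjusted p = 0.039) and MTHFD2 (adjusted p = 0.0418). It was 6 with 1 fit over all 16 arrays and 4 with a gene's probes averaged. It was 0 without DMSO replicate 1 or combination replicate 1 and 1 without any other single array. No gene fell with GSK126 alone, where 0.0498% of all genes did, or with UNC0638 alone, where 0.0685% did. At an unadjusted p under 0.05, limma gave 1 of the 10 in each of these comparisons, PSAT1 in both (log2 differences of -0.46 and -0.64). The medians were -0.25 and -0.15, against -0.04 and -0.01 for all genes. Between the combination and GSK126 no gene passed (2 at an unadjusted p under 0.05, with 0.529% of all genes called lower), nor did any between the combination and UNC0638 (3 at an unadjusted p under 0.05, with 0.610% called lower). None of the 10 genes was called higher in any comparison with DMSO or between treatments in either line.

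The difference between the lines was tested in 1 fit over all 16 arrays. With the combination, the decrease of 7 of the 10 genes was smaller in RPMI-8226 than in MM.1S by this test. The share of all genes called in the same direction, as lowered less or raised more in RPMI-8226, was 8.51%. PSAT1 differed by 1.91 on the log2 scale (SE 0.32, adjusted p = 0.00437), MTHFD1L by 1.31 (SE 0.27, adjusted p = 0.0128), MTHFD2 by 1.24 (SE 0.16, adjusted p = 0.00131) and SHMT2 by 0.91 (SE 0.19, adjusted p = 0.013). ALDH1L2 (1.82, adjusted p = 0.0391), MTHFD1 (0.75, adjusted p = 0.018) and PSPH (0.57, adjusted p = 0.0237) passed as well. ALDH1L2 was already dim in RPMI-8226 with DMSO (0.151 and 0.141), near its MM.1S levels with the combination (0.132 and 0.121). Whether this limited its decrease in RPMI-8226 was not tested. PHGDH had the greatest difference of the 10 but also the widest error (2.05, SE 0.66, adjusted p = 0.0636). It passed with the replicate block (SE 0.46, adjusted p = 0.016), for a count of 8. GLDC (0.54, adjusted p = 0.252) and SHMT1 (0.16, adjusted p = 0.742) did not pass. The median difference was 1.07, against 0.09 over all 14842 genes. The count of 7 went to 2 without MM.1S DMSO replicate 2, 3 without MM.1S combination replicate 2, and 4 without replicate 2 of either group in RPMI-8226.

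**Figure D3:**
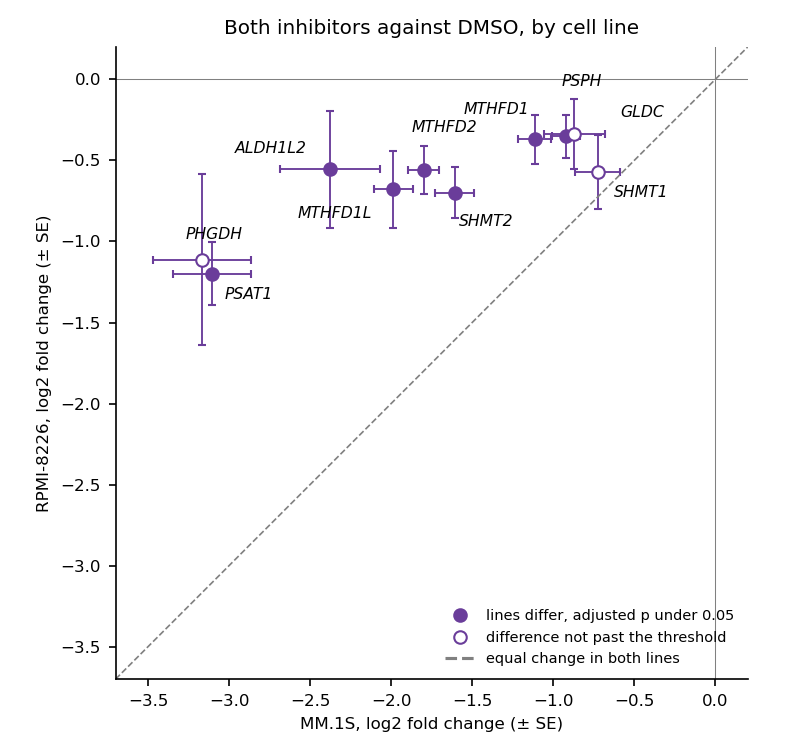
Log2 fold change with GSK126 + UNC0638 in MM.1S and in RPMI-8226, with SE bars on both axes and a dashed line where the lines would be equal. All 10 genes lie on the side of the greater decrease in MM.1S, and the 7 filled points are those whose difference between the lines passed the test.

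With UNC0638 alone, 3 genes fell in MM.1S beyond what was seen in RPMI-8226, against 1.19% of all genes called in the same direction. These were PSAT1 (1.97, SE 0.32, adjusted p = 0.0145), MTHFD2 (1.02, SE 0.16, adjusted p = 0.0137) and SHMT2 (1.01, SE 0.19, adjusted p = 0.0275). The count was 0 without replicate 2 of MM.1S DMSO or UNC0638 or without RPMI-8226 UNC0638 replicate 1, 1 without RPMI-8226 UNC0638 replicate 2 and 5 without RPMI-8226 DMSO replicate 1. With the replicate block it was 5, with PHGDH (adjusted p = 0.0418) and PSPH (adjusted p = 0.0421) added. With GSK126 alone no gene passed, against 0.310% of all genes called in the same direction, and limma gave 4 at an unadjusted p under 0.05. With DMSO, the MM.1S arrays were higher in PHGDH (RPMI-8226 minus MM.1S -2.29 on the log2 scale), ALDH1L2 (-2.16), GLDC (-1.41) and PSAT1 (-0.93). The RPMI-8226 arrays were higher in SHMT1 (1.54), MTHFD1L (1.35), MTHFD1 (0.80), PSPH (0.52) and SHMT2 (0.42). MTHFD2 was about equal (0.02). These are means of 2 arrays on separate slides and were not tested.

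PSAT1, SHMT1 and MTHFD1L have more than 1 probe each. Both PSAT1 probes fell in both lines with the combination, the second by 3.31 in MM.1S (SE 0.25, adjusted p = 0.000332) and by 1.27 in RPMI-8226 (SE 0.26, adjusted p = 0.0278). All 4 MTHFD1L probes fell in MM.1S, with values from -1.93 to -2.36. In RPMI-8226 the other 3 passed where the counted one did not, with values of -0.95 (adjusted p = 0.0438), -0.94 (adjusted p = 0.0457) and -0.74 (adjusted p = 0.0443). The second SHMT1 probe, printed above, fell by 1.09 in MM.1S with the combination (SE 0.10, adjusted p = 0.000482). It also fell with UNC0638 alone (-0.44, SE 0.10, adjusted p = 0.0203), where the counted probe did not pass. Of the other SHMT1 probes, the one at chr17:18251586-18251645 fell in MM.1S (-0.65, adjusted p = 0.0213) and did not pass in RPMI-8226 (-0.69, adjusted p = 0.0903). The one at chr17:18256831-18256890 fell in RPMI-8226 (-0.90, adjusted p = 0.034) and did not pass in MM.1S (-0.56, adjusted p = 0.0861).

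**Figure D4:**
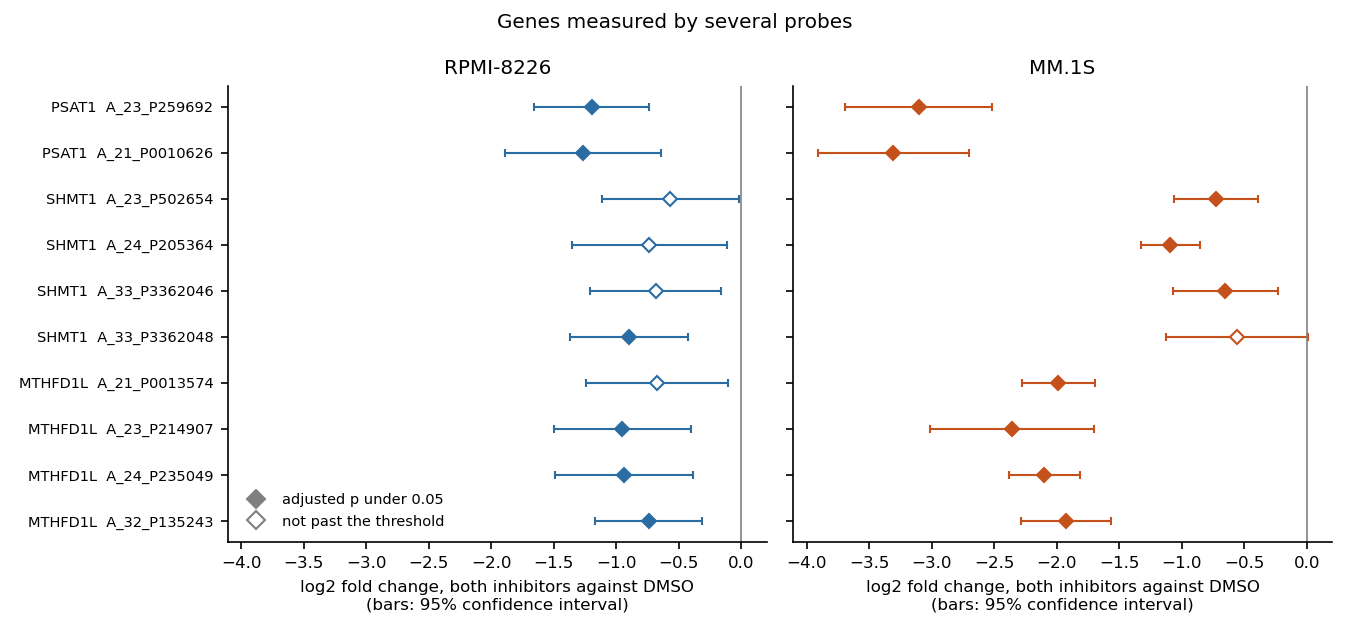
Log2 fold change with GSK126 + UNC0638 and its 95% interval for each probe of PSAT1, SHMT1 and MTHFD1L in both lines. The probes of a gene lie on the same side of 0 in both lines, and those of PSAT1 and MTHFD1L are lower in MM.1S than in RPMI-8226.

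To place the enzymes in their pathway, 50 further genes were read, grouped by role into glycine cleavage partners, folate interconversion, folate uptake, serine and glycine transport, the methionine cycle, other uses of serine, and purine synthesis. In MM.1S, 42 of the 50 passed the filter, and with the combination 24 fell and 5 rose, with a median of -0.50, while 32.2% of all genes fell and 23.2% rose. In RPMI-8226, 43 passed, and 7 fell and 3 rose, with a median of -0.22, while 4.71% of all genes fell and 8.27% rose. On the percentile of probes detected by every array, the RPMI-8226 split was 6 lower and 5 higher. With UNC0638 alone, 16 fell and 5 rose in MM.1S, where 16.5% of all genes fell and 13.8% rose. In RPMI-8226, 0 fell and 1 rose, among 11 lower and 104 higher of all 16062 genes. With GSK126 alone, 2 fell and 2 rose in MM.1S, or 7 and 3 with normexp background correction, among 401 lower and 1001 higher of all 17014 genes. In RPMI-8226, 1 fell and 0 rose, among 8 lower and 105 higher.

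All 6 genes of de novo purine synthesis, which takes up formyl groups from folate, fell in MM.1S with the combination, against 32.2% of all genes. In RPMI-8226, 2 of the 6, GART and PFAS, fell, against 4.71% of all genes. GART, one of the enzymes that use 10-formyl-folate, fell by 0.79 in MM.1S (SE 0.07, adjusted p = 0.000537) and by 0.73 in RPMI-8226 (SE 0.15, adjusted p = 0.0264). PFAS, the next enzyme of the route, fell by 1.34 (SE 0.15, adjusted p = 0.000887) and by 0.81 (SE 0.15, adjusted p = 0.0192). AHCY, which hydrolyses the S-adenosylhomocysteine left by methylation reactions, fell by 1.41 (SE 0.12, adjusted p = 0.000447) and by 0.66 (SE 0.17, adjusted p = 0.0493). SFXN1, the mitochondrial serine transporter, fell by 0.79 in both lines (adjusted p = 0.0243 in MM.1S and 0.0257 in RPMI-8226).

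SLC6A9, the glycine transporter GLYT1, also fell in both lines. The share of all genes that fell in both lines was not computed, so these pathway genes are named without a comparison with it. The levels of SLC6A9 in MM.1S were 8.37 and 12.2 with DMSO, 1.83 and 2.82 with GSK126, 1.62 and 0.893 with UNC0638, and 0.69 and 0.368 with both. The 4 groups did not overlap. SLC6A9 was left at 4.99% of the DMSO level (-4.32, SE 0.44, adjusted p = 0.000677). In RPMI-8226 its levels were 4.98 and 3.44 with DMSO, 2.8 and 3.32 with GSK126, 3.2 and 3.02 with UNC0638, and 1.74 and 2.22 with both (-1.07, SE 0.23, adjusted p = 0.0302). The lines differed by 3.25 (SE 0.51, adjusted p = 0.00356). Serine use outside the folate cycle did not follow the enzymes in MM.1S, where 3 of 5 genes rose and 0 fell, against 23.2% and 32.2% of all genes. These were SPTLC3, a subunit of the enzyme that starts sphingolipid synthesis (2.89, SE 0.12, adjusted p = 9.92e-05), SDSL (0.76, adjusted p = 0.00518) and SRR, the serine racemase (0.64, adjusted p = 0.0183). SPTLC3 was the 1 pathway gene called in opposite directions, as it fell in RPMI-8226 (-0.89, SE 0.17, adjusted p = 0.021). SRR, SDSL and the RPMI-8226 value of SPTLC3 are named after their values were seen.

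**Figure D5:**
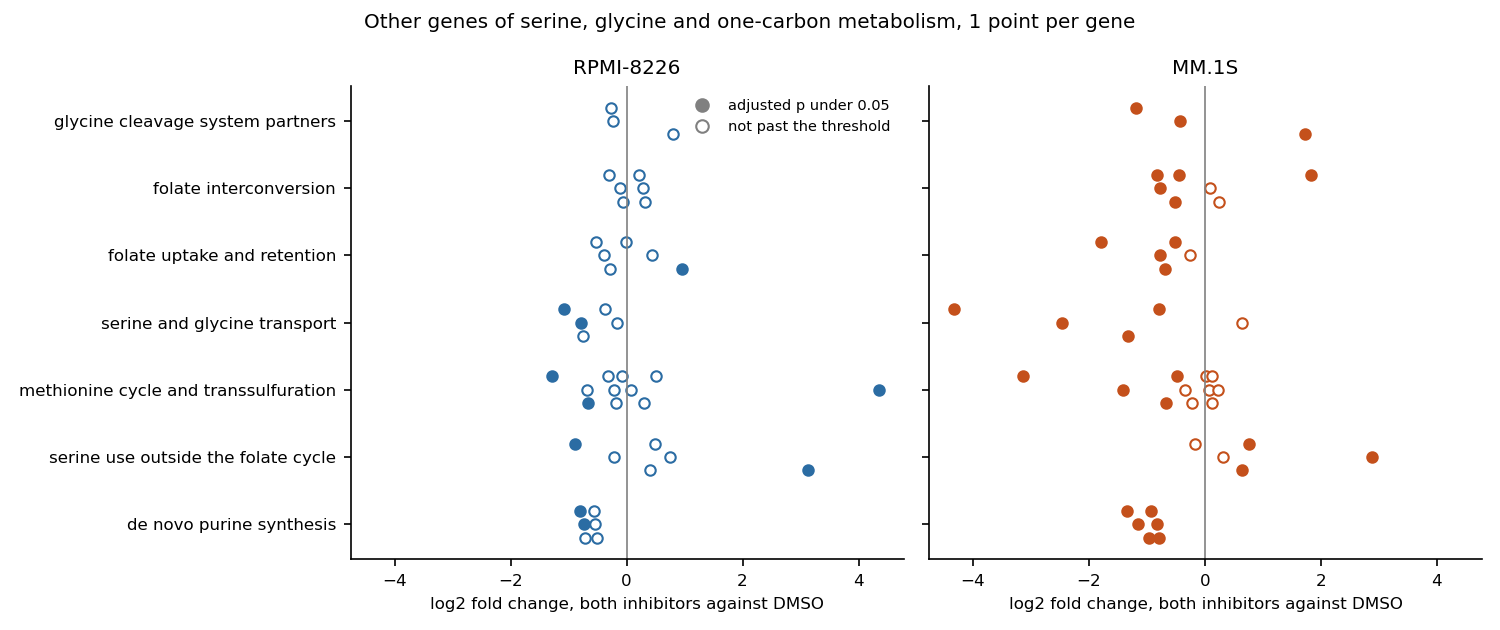
Log2 fold change with GSK126 + UNC0638 against DMSO for the further pathway genes, by role, in both lines, with filled points where the limma adjusted p was under 0.05. Purine synthesis and transport hold mostly negative values, and serine use outside the folate cycle holds the positive values of SPTLC3, SDSL and SRR in MM.1S.

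ATF4, the activator of this pathway, had MM.1S levels of 174 and 199 with DMSO, 119 and 125 with GSK126, 111 and 107 with UNC0638, and 96.7 and 95.7 with both. Its 4 groups stood in the same order as those of PHGDH. ATF4 fell by 0.95 with the combination (SE 0.09, adjusted p = 0.000635), by 0.77 with UNC0638 (adjusted p = 0.00435) and by 0.61 with GSK126 (adjusted p = 0.0213). In RPMI-8226 it was at 193 and 190 with DMSO, 149 and 172 with GSK126, 199 and 187 with UNC0638, and 156 and 177 with both. The GSK126 and combination arrays overlapped and lay below DMSO, and the difference with the combination did not pass (-0.21, SE 0.15, adjusted p = 0.365). The ATF4 responses differed between the lines with the combination (0.74, SE 0.16, adjusted p = 0.0142) and with UNC0638 (0.77, SE 0.16, adjusted p = 0.0346). Whether the ATF4 transcript has a part in the enzyme values was not tested. Of the genes whose products the inhibitors target, EZH2 fell in MM.1S with the combination (-1.10, SE 0.18, adjusted p = 0.00348), as did EHMT2, which encodes G9a (-0.32, SE 0.10, adjusted p = 0.0347). In RPMI-8226 neither passed (EZH2 -0.30, adjusted p = 0.198 and EHMT2 -0.53, adjusted p = 0.164). EHMT1, also among the regulators read, was not called with the combination in either line. Its response to the combination was not called as different between the lines (-0.20, SE 0.16, adjusted p = 0.444).

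The enzymes moved alike over the 16 arrays. Each gene was set against the mean of the other 9 after the mean of its line was taken off, as a description without a test, since arrays of a line share a slide and the treatments are common to all genes. Pearson's r was 0.99 for MTHFD2, 0.98 for SHMT2, 0.97 for PSAT1 and 0.96 for MTHFD1L. It was 0.92 for PHGDH and for PSPH, 0.91 for MTHFD1, 0.86 for ALDH1L2, 0.80 for GLDC and 0.70 for SHMT1. Within RPMI-8226 PHGDH (0.62) and ALDH1L2 (0.57) followed the others least closely, with GLDC at 0.66 and SHMT1 at 0.68. The spread of r over all genes is not given here. Whether the enzymes moved more alike than other genes that respond to the treatments was therefore not tested. Among 14832 genes kept in both lines, those nearest to the mean of the 10 enzymes were SLC6A9 (r of 0.99), GARS (0.98), MGC72080 (0.97), HDDC3 (0.97) and WARS (0.97). GARS and WARS encode the tRNA synthetases for glycine and tryptophan, and their log2 changes with the combination were -1.97 and -1.45 in MM.1S and -0.95 and -0.74 in RPMI-8226.

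As the enzymes moved together, their promoters were searched on both strands for the core of the ATF4 response element, TGATGNAA, and for the E-box CACGTG. Sequences were from RefSeq on GRCh38.p14, in windows of 300 bases, 250 before the start and 50 after. The table held windows for 7 of the 10 genes and none for SHMT2, PSPH and ALDH1L2, which were therefore not searched. Among all 35116 windows, 3.62% hold the first motif and 7.26% the second, and the MTHFD1L matches of the 2 motifs do not overlap each other. Among the 7 genes searched, MTHFD1L was the 1 with the ATF4 core, and MTHFD1L and MTHFD1 were those with the E-box. A gene was counted if any of its windows held the motif, so these counts and the shares of windows are in unlike units. The 2 MTHFD1L matches lie in 3 of its 4 windows, which overlap and have separate starts. They are shown with the motif in capitals, 8 bases on each side, and the place of the motif's first base relative to each of the 3 starts.
MTHFD1L, chr6:150866349-150866372, plus strand, at -129, -90 and 24: gccggctcTGATGCAAtcgcgccg
MTHFD1L, chr6:150866324-150866345, plus strand, at -154, -115 and -1: cccggctcCACGTGcgcagccg
The 250 bases before the MTHFD1 start hold the E-box, in capitals, and those before the PHGDH start, shown because PHGDH had the greatest decrease, hold neither motif.
MTHFD1, chr14:64388103-64388352, plus strand: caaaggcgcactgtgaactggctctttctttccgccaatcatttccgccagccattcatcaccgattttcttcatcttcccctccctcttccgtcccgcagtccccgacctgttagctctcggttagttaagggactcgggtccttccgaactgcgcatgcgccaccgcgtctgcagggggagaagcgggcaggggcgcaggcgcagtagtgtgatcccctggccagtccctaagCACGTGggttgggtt
PHGDH, chr1:119711684-119711933, plus strand: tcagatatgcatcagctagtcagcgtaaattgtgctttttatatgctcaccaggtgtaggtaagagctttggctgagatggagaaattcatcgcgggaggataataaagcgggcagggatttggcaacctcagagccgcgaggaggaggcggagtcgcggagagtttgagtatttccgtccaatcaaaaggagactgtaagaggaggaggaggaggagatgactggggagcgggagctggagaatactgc
A match is a string of letters and not a site of binding, and the lack of one says only that these letters are not in this window.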

How the data were processed

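Per the labels, 100 ng of total RNA from each of 16 samples was amplified, labelled and hybridised to a SurePrint G3 Human GE v2 array. The authors deposited, per array, the Agilent Feature Extraction output (version 10.7, per the submitters' processing notes), with a linear, background-subtracted intensity for every spot and no normalization between arrays. Another deposited table gives these intensities for all samples, 99.9956% of 939472 equal after rounding to its digits, with no centring or log scale. The study's methods name Gene Spring GX for the arrays; a test, filter and normalization are not given in the sources used here.

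Of 62976 spots, 4259 controls and all outlier-marked spots were dropped. Log2 intensity minus the array's 75th percentile was averaged per probe, and probes well above background (over 0.5 of their spots) on both replicates in 1 or more groups of a line were kept (23199 in RPMI-8226, 25102 in MM.1S). limma (3.58.1, R 4.3.3) was fitted with lmFit and eBayes over the 8 arrays of a line, or over 16 for differences between lines, with Benjamini-Hochberg adjustment over all kept probes at 0.05. Simulated data served to check the sign and mean size of its estimates. Their noise was independent between arrays, without the shared deviations given below, so the check does not bear on the rate of false calls here. A gene was read through its kept probe with the highest mean. Fold values are differences of group means. Alternatives were quantile normalization, normexp (offset 50), other filters, fits and probe rules, the series table, a replicate block, and each array left out. Samples with the same replicate number in a line carry a shared date in their file names; their deviations correlated at 0.254 to 0.415 in RPMI-8226 and at 0.0847 to 0.225 in MM.1S, and blocked values are given where they change a call. Precision is limited by 2 arrays per group. The text names all 10 genes, pathway genes called with the combination in both lines, and regulators. The members and lists were chosen with earlier results of these data known. Marker and pathway genes NFE2L2 and LYZ were not matched to a probe by name.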

Additional observations from a re-analysis of the deposited data

Results flagged for a closer look

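The response of 10 enzyme values differed between the cell lines by the test of the difference itself, as log2 change in RPMI-8226 minus that in MM.1S. With UNC0638 these were PSAT1 (1.97), MTHFD2 (1.02) and SHMT2 (1.01). With GSK126 + UNC0638 they were PSAT1 (1.91), ALDH1L2 (1.82), MTHFD1L (1.31), MTHFD2 (1.24), SHMT2 (0.91), MTHFD1 (0.75) and PSPH (0.57). Each is positive because the gene fell further in MM.1S, and each line was on its own slide, so that line and slide cannot be told apart. ALDH1L2 had a signal close to background in RPMI-8226, and whether this limited its decrease there was not tested.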

How the results depend on the processing

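The 10 decreases with GSK126 + UNC0638 in MM.1S passed under every setting that kept all arrays. No called change of an enzyme turned its direction under any setting. For single genes, 615 values kept their side of the threshold under other settings, 23 lost and 18 gained a call, and 1 uncalled value changed sign. Of the values with 1 array left out, 416 kept it, 49 lost and 4 gained a call, and 11 uncalled ones changed sign. The causes of these shifts were not tested. With the filter on dim probes dropped, which adds probes to the adjustment, the count went from 7 to 1 for GSK126 in MM.1S, from 2 to 1 for the combination in RPMI-8226, from 3 to 0 for the combination against UNC0638 in MM.1S and from 7 to 4 for the line difference with the combination. When just the groups under comparison were fitted, which leaves fewer arrays, the first 3 were 1, 0 and 0. The RPMI-8226 combination count was 6 with 1 fit over all 16 arrays, which also gave 1 against UNC0638, 4 with a gene's probes averaged, and 1 with quantile normalization or the percentile over probes detected on all arrays. That percentile raised the median of all genes by 0.13 in RPMI-8226 and 0.18 in MM.1S with the combination. The intensity-dependent prior variance gave 6 for the combination against UNC0638 in MM.1S, 1 against GSK126 in RPMI-8226 and 5 for the line difference with UNC0638. Normexp background correction gave 5 for the first of these and 1 for the line difference with GSK126.

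With the replicate block, the RPMI-8226 combination count and the line difference with UNC0638 were 5 each. In the comparisons with DMSO it gained GLDC with UNC0638 and lost PHGDH with GSK126 in MM.1S, beside the 3 gained in RPMI-8226. It gave 4 for the combination against UNC0638 in MM.1S and 8 for the line difference with the combination, and changed no other call.

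With each array left out in turn, where the lone sample is assumed to vary like the other groups, the counts were 0 to 5 for GSK126, 6 to 9 for UNC0638, 9 to 10 for the combination, 6 to 8 for the combination against GSK126 and 0 to 3 against UNC0638 in MM.1S, and 0 to 1 for the combination in RPMI-8226. They were 2 to 7 for the line difference with the combination and 0 to 5 with UNC0638. The other RPMI-8226 counts and the line difference with GSK126 stayed at 0. The slide as a block was not run, since each line has 1 slide. The 2 arrays per group and, for ALDH1L2 in RPMI-8226, a signal close to background limit the precision.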
